A study of Micropterus salmoides with 24 samples.

Results

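Head kidney and trunk kidney of largemouth bass (Micropterus salmoides), a freshwater fish, were compared here through the transcripts that are abundant in every library of both tissues. The members are 100 transcript contigs, sequences assembled from overlapping reads, out of 78435 contigs with a count in the series (0.127%). For each contig the count in a library was divided by the library total and expressed per 1000000 counts (CPM). Contigs were ranked by the lowest of their CPM values over the 24 libraries, with a contig absent from a library set to 0, and the first 100 were taken. The members were thus chosen by their CPM in these libraries. The levels of all 24 libraries chose the members, without regard to tissue or treatment, so levels and shares of the counts are descriptions and carry no test. The rule favours contigs that lack a low library. It sets a floor under the levels of a member and no upper limit on them.

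The libraries came from adult male fish kept for 21 days in 38 L tanks in clean water (control), in water with glyphosate, a herbicide ingredient, at 10 mg/L, or with Rodeo, a herbicide sold for use near water, at the same concentration of glyphosate. Each treatment had 4 tanks of 4 fish. Each tissue and treatment had 4 libraries, which gives 6 groups, and no strain, genotype or exact age is stated for any of them. Polyadenylated RNA was sequenced, and the labels tie no library to a tank or an animal, so p-values reflect only how far these libraries vary. The head kidney of bony fish is a blood-forming and immune organ that also contains interrenal cells, which make steroids, and most nephrons lie in the trunk kidney.

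A small number of genes usually supplies a large part of the polyadenylated RNA of a vertebrate cell. Those that every cell uses, such as genes for ribosomal proteins, translation factors and the cytoskeleton, and mitochondrial genes are typical of this class, and blood-forming tissue can add globin RNA. Which of these the members are is not known here, because 0 of the 78435 identifiers matched a RefSeq table of 37622 genes. The members are therefore called by their identifiers, no gene list or cell type marker could be applied, and contig sequences were not analysed here. In RNA from whole tissue, fewer cells of a type and less RNA per cell cannot be told apart.

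Library totals ran from 9871623 counts in head control 3 to 29858387 in trunk control 2. Every member had at least 2584 counts in every library, so the counting error of a member's level was at most 1.97%. One feature of the libraries touches every comparison of treatments. In both tissues 63 contigs had a set of low and a set of high libraries more than 3 log2 units apart. The level required was 1.5 log2 CPM. Over these contigs 8 of 144 pairs of a head and a trunk library had the same pattern for 96.8% to 100% of the contigs, against at most 85.7% in the other 136 pairs. In 0 of these 8 pairs did both libraries carry the same treatment label, and 0 of the 63 contigs are members. The head partners of trunk control 1, 2 and 3 were head glyphosate 3, head glyphosate 4 and head Rodeo 1. Those of trunk glyphosate 4, trunk Rodeo 1 and trunk Rodeo 2 were head control 2, 3 and 4. Within each of these runs the libraries follow one another in sample order in both tissues. Trunk glyphosate 1 went with head Rodeo 3, and trunk Rodeo 4 with head glyphosate 1. Whether labels of either tissue were shifted along the sample order was not tested. From the files it cannot be told whether treatment labels of either tissue are in error, so every difference between treatments holds only as far as the labels do. Groups are used as labelled, and results are also given for the 8 libraries without such a match. Those are head control 1, head glyphosate 2, head Rodeo 2 and 4, trunk control 4, trunk glyphosate 2 and 3, and trunk Rodeo 3. The lack of a match is no check that their labels are right.

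The identifiers of the members were unevenly spread over the 3 kinds in the files. Of the 100 members 97 carried an LMB_Assem identifier, whereas 32.0% of all contigs did. The others were 2 with an isotig identifier and 1 of the kind called contig. Among the members 10 shared the number 0 after LMB_Assem, and 12 shared 6 other numbers in pairs. What a shared number means is not given in the sources used here. Reads can be split among contigs of very similar sequence, which adds an unknown error to any single level.

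Levels of the members spanned more than 1 order of magnitude. Mean levels ran from 395 to 23399 CPM over the 12 head kidney libraries, with a median over members of 1120 CPM. Over the 12 trunk kidney libraries they ran from 320 to 14306 CPM, with a median of 1530 CPM. In head kidney 3 members averaged 10000 CPM or more, 57 lay between 1000 and 10000 CPM and 40 lay lower. In trunk kidney these numbers were 4, 72 and 24. Trunk kidney thus held fewer members under 1000 CPM. CPM are not divided by contig length, so an order among contigs is an order of counts and not of molecules.

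The contig of highest rank was LMB_Assem.695.CB1. In head kidney it stood at 53081, 23276, 14547 and 12907 CPM in the 4 controls, at 35081, 19913, 35101 and 15006 CPM in the glyphosate libraries and at 20569, 13837, 20114 and 17353 CPM in the Rodeo libraries. In trunk kidney the values were 13147, 21515, 8818 and 8214 CPM in controls, 10001, 12021, 5782 and 11531 CPM with glyphosate and 9392, 13129, 10564 and 7325 CPM with Rodeo. Head control 1 was the highest library by a wide margin, and the ranges of the tissues overlapped. The next ranks were held by LMB_Assem.650.C3, LMB_Assem.4292.C3, LMB_Assem.695.C8 and LMB_Assem.6030.C1, with lowest values of 2562, 2250.3, 2032 and 1907 CPM. LMB_Assem.695.C8, which shares its number with the contig of highest rank, stood at 27245, 10114, 16504 and 9557 CPM in head controls and at 3646, 5072, 2032 and 2157 CPM in trunk controls. Every head kidney library was above every trunk kidney library for that contig.

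At the edge of the rule the levels were close together. The last member, LMB_Assem.1804.C1, had its lowest level of 261.8 CPM in head control 3. The first contig outside, LMB_Assem.1368.C3, had its lowest level of 258.9 CPM in the same library. Head control 3 held the lowest level of 15 members, head Rodeo 1 that of 17 and trunk control 3 that of 29. These 3 libraries therefore set the rank of most members.

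The 100 members took between 12.01% and 29.2% of the counts of a library, although they are 0.127% of the contigs. In head kidney the shares were 22.4%, 16.6%, 17.5% and 13.9% in controls, 21.6%, 16.4%, 24.5% and 17.7% in glyphosate libraries and 18.6%, 15.5%, 19.1% and 24.02% in Rodeo libraries. In trunk kidney they were 22.3%, 21.1%, 12.01% and 16.4% in controls, 17.2%, 29.2%, 22.5% and 29.1% in glyphosate libraries and 15.4%, 19.3%, 21.3% and 20.1% in Rodeo libraries. The ranges of all 6 groups overlapped. Trunk glyphosate reached furthest up, with 3 of its 4 libraries above every trunk control.

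As group means, the head kidney shares were 17.6% ± 3.57 in controls, 20.0% ± 3.70 with glyphosate and 19.3% ± 3.53 with Rodeo (SD, n = 4 each). The trunk kidney shares were 17.9% ± 4.70 in controls, 24.5% ± 5.81 with glyphosate and 19.04% ± 2.53 with Rodeo. Over 12 libraries each, head kidney averaged 18.97% ± 3.43 and trunk kidney 20.5% ± 5.10. The difference between the tissues was smaller than the SD within either. In the 8 unmatched libraries the shares were 22.4% for head control 1, 16.4% for head glyphosate 2, 15.5% and 24.02% for head Rodeo 2 and 4, 16.4% for trunk control 4, 29.2% and 22.5% for trunk glyphosate 2 and 3, and 21.3% for trunk Rodeo 3.

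**Figure D1:**
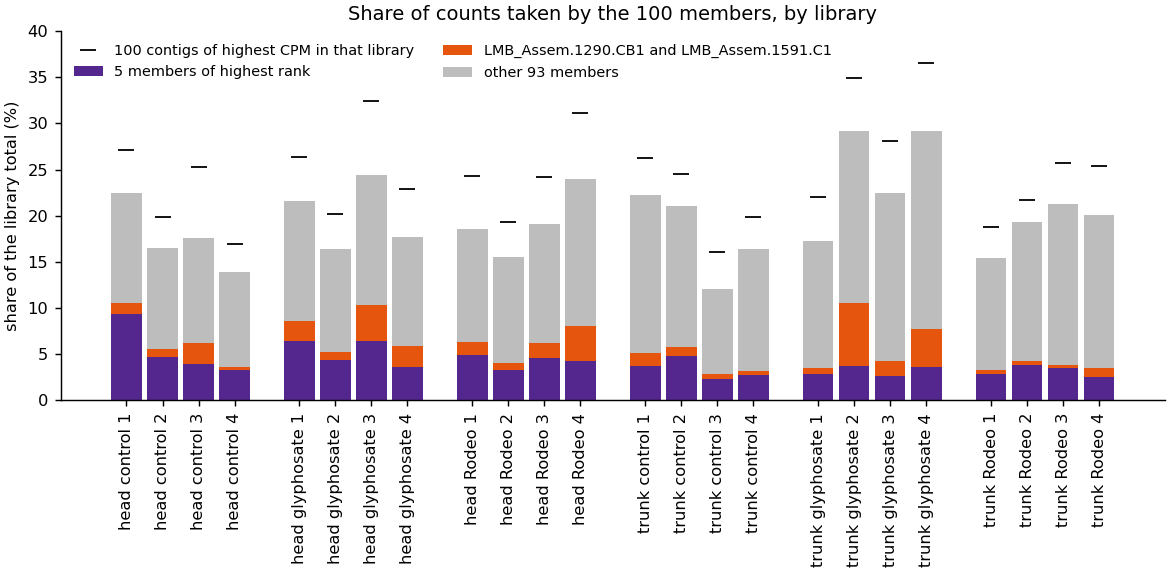
Share of each library's counts taken by the 100 members, in percent, for the 24 libraries in 6 groups. Bars add the 5 members of highest rank (purple), LMB_Assem.1290.CB1 with LMB_Assem.1591.C1 (orange) and the other 93 members (grey), and the short line marks the share of the 100 contigs of highest CPM in that library; the members stay below that line in every library, and the orange part is largest in trunk glyphosate 2.

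Single contigs weighed on some of these shares. LMB_Assem.1591.C1 alone took 6.78% of the counts of trunk glyphosate 2 and 3.83% of those of trunk glyphosate 4. LMB_Assem.1290.CB1 took 3.71% of head Rodeo 4 and 3.63% of head glyphosate 3. LMB_Assem.695.CB1 took 5.31% of head control 1. Without the 3 most variable members the mean share was 21.0% ± 3.47 in trunk glyphosate, 16.9% ± 4.22 in trunk controls and 18.3% ± 2.49 in trunk Rodeo libraries (n = 4 each), with trunk glyphosate still the highest. In head kidney it was then 16.1% ± 3.32 in controls, 17.5% ± 2.73 with glyphosate and 17.1% ± 2.30 with Rodeo.

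The counts of the members were concentrated in a few of them, more so in head kidney. In a head kidney library 7 to 19 members together reached 50% of the members' counts, and in a trunk kidney library 14 to 24 did. The 100 contigs of highest CPM in a library, chosen in that library alone, took 16.05% to 36.6% of its counts. Between 52 and 75 of them were members. By mean level, 67 members were among the first 100 contigs of head kidney, 67 were among the first 100 of trunk kidney, 57 were among both and 23 among neither. These 23 are members for their lowest level and not for a high mean.

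Levels of the members leaned towards trunk kidney. On the scale of CPM, 48 of 100 had mean levels within 1.5 times of each other, 68 had the higher mean in trunk kidney, and 32 had it in head kidney. The median ratio of trunk to head kidney was 1.27. More than 2 times apart were 23 members, 15 of them higher in trunk kidney, and more than 4 times apart were 5.

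**Figure D2:**
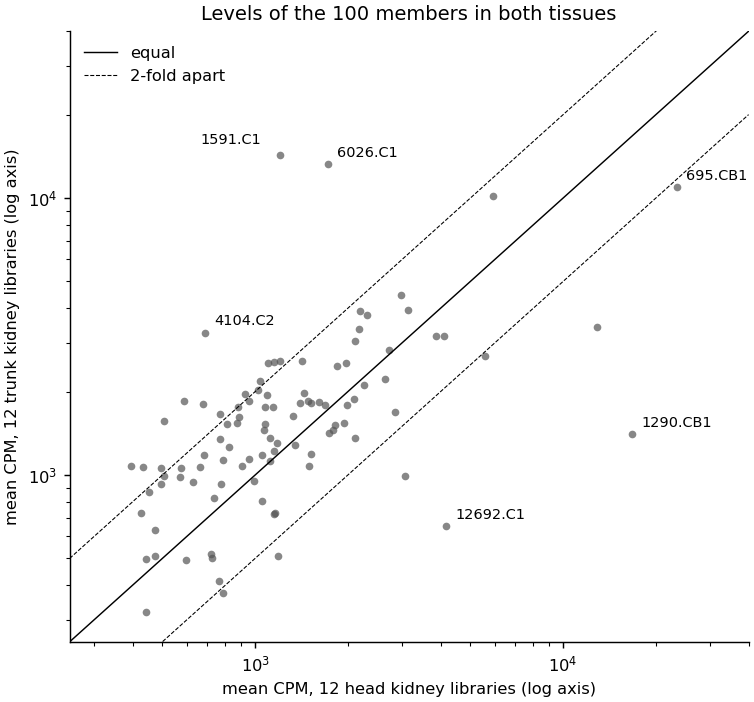
Mean CPM of the 100 members over 12 head kidney libraries (horizontal, log axis) and 12 trunk kidney libraries (vertical, log axis), 1 point per contig, with lines for equal levels and for a 2-fold distance. Labels leave out the prefix LMB_Assem; 5 members lie more than 4 times apart, with 1591.C1, 6026.C1 and 4104.C2 higher in trunk kidney and 1290.CB1 and 12692.C1 higher in head kidney.

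The tissues were compared with edgeR's quasi-likelihood test over all 24 libraries and 52407 contigs, and a call needed an adjusted p under 0.05 and a log2 difference beyond 1 either way. Of the members 49 were called, beside 54.5% of all contigs tested, and by the adjusted p alone 77 passed, beside 65% of all contigs. In CPM on library totals, without TMM, the 12 head and the 12 trunk kidney libraries did not overlap for 11 members. Trunk kidney had the higher levels for 6 of these and head kidney for 5. Such contigs were not counted among all contigs tested, so whether 11 is many or few cannot be said. By the test, higher in trunk kidney were 45 members, beside 31.7% of all contigs, and higher in head kidney were 4, beside 22.8%. The numbers in this split changed with the scaling. The TMM scaling of edgeR adjusts library sizes for their composition, and its factors were 1.002 to 1.39 in head kidney and 0.528 to 1.11 in trunk kidney. With library totals alone, 23 members were called, beside 58.2% of all contigs. Of these, 15 were higher in trunk kidney, beside 13698 of the 52407 contigs, and 8 were higher in head kidney, beside 16782. The median log2 difference of the members was 0.87 with TMM and 0.37 with library totals, while that of all contigs was 0.09 and -0.38.

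Between the control groups of the tissues, a contrast within the fit to all 24 libraries, 42 members were called, beside 42.2% of all contigs. Of these, 38 were higher in trunk kidney, beside 14569 of the 52407 contigs, and 4 were higher in head kidney, beside 7572. With library totals 21 members were called, beside 41.3%. Without the matched libraries, the contrast of the control groups is 1 library of each tissue. The median log2 difference was then 0.26 for the members and 0.34 for all contigs. Over all treatments, the comparison of the tissues without the matched libraries gave a median log2 difference of 0.86 for the members and 0.11 for all contigs. There 84 members lay above 0, beside 52.2% of all contigs. Sequencing runs are not labelled, and tissue and run cannot be told apart. The main fits over both tissues treated the 24 libraries as independent and took no account of the 8 matched pairs. Whether matched libraries came from the same fish is not given in the labels and was not tested.

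Among the members higher in trunk kidney, LMB_Assem.6026.C1 had the smallest p. Its lowest, median and highest level was 6288, 12539.6 and 21434 CPM in trunk kidney and 1073, 1545 and 2555 CPM in head kidney (log2 difference 3.52, SE 0.25, n = 12 each; edgeR adjusted p = 8.06e-12). The lowest trunk kidney library was more than 2 times above the highest head kidney library. LMB_Assem.4104.C2 had lowest, median and highest levels of 1664, 3169 and 4764 CPM in trunk kidney, against 302, 698 and 1099 CPM in head kidney (log2 difference 2.81, SE 0.25; edgeR adjusted p = 4.46e-10). Again no library of one tissue reached into the range of the other.

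LMB_Assem.12692.C1 was the member higher in head kidney with the smallest p. Its lowest, median and highest level was 3081, 3854 and 6604 CPM in head kidney and 305, 673 and 982 CPM in trunk kidney (log2 difference -2.22, SE 0.20; edgeR adjusted p = 3.90e-10). All 12 head kidney libraries lay above all 12 trunk kidney libraries. LMB_Assem.1290.CB1 was the second most abundant contig of head kidney by its mean and only the 81st of trunk kidney. Its lowest, median and highest levels were 2445, 14712 and 37095 CPM in head kidney, against 305, 936 and 3791 CPM in trunk kidney (log2 difference -2.94, SE 0.50; edgeR adjusted p = 1.43e-05). Its ranges overlapped, since head control 4 lay below trunk control 1 and trunk Rodeo 4.

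Pairs of members that share a number did not always share their balance between the tissues. LMB_Assem.3332.C2 and LMB_Assem.3332.C4 had trunk to head ratios of mean CPM of 0.943 and 0.963. LMB_Assem.2777.C1 and LMB_Assem.2777.C2 had ratios of 0.900 and 1.24, and LMB_Assem.4292.C3 and LMB_Assem.4292.C1 of 0.773 and 1.20. LMB_Assem.695.CB1 and LMB_Assem.695.C8 were both lower in trunk kidney, at 0.468 and 0.266. Whether the difference within a pair exceeds the spread between libraries was not tested.

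Single members varied to unlike degrees within groups. The SD of log2 CPM within groups had a median of 0.37 over the 100 members and ran from 0.15 to 1.13. Over all 24 libraries the highest level of a member was between 1.92 and 176 times its lowest, with a median of 3.76 times. For 20 members this ratio was under 3, and for 7 it was over 10. With TMM-scaled CPM the median ratio was 7.40, with 3 members under 3 and 31 over 10. Among the 900 contigs ranked 101 to 1000 the median ratio was 3.74, with 308 under 3 and 95 over 10. With TMM-scaled CPM it was 4.03 for those contigs, with 247 under 3 and 146 over 10. Without trunk control 3, 34 members were under 3 on the scale of library totals, and without trunk glyphosate 2 the highest ratio was 99.3. The rule's own effect on these values was not measured. The contigs ranked 101 to 1000 had a median SD of 0.33, and the 32570 contigs with a mean of at least 1 CPM had one of 0.57 after adding 0.5 CPM, a set that includes contigs of far lower counts. Scaled by TMM, the median SD of the members was 0.52 and that of ranks 101 to 1000 was 0.37.

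**Figure D3:**
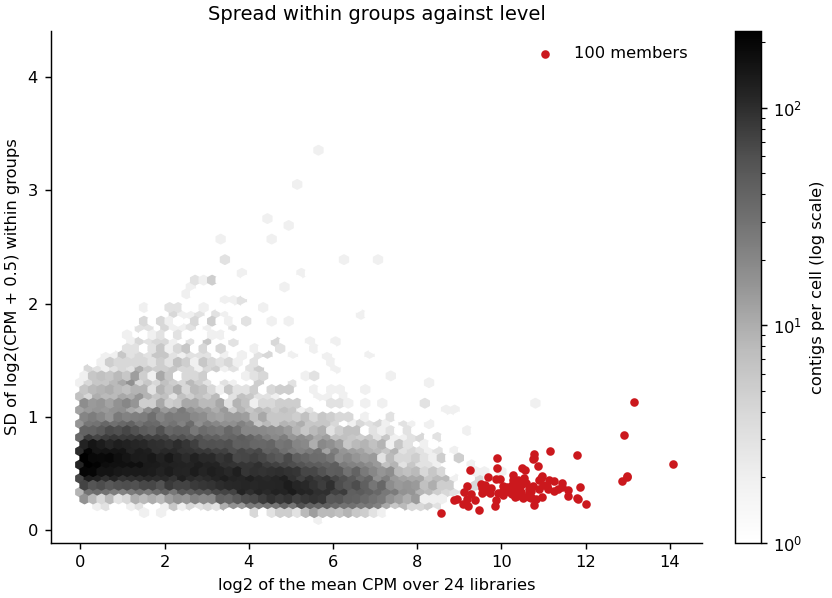
SD of log2(CPM + 0.5) within the 6 groups (vertical) against the log2 of the mean CPM over 24 libraries (horizontal). Grey cells count the contigs with a mean of at least 1 CPM on a log colour scale and red points are the 100 members. The members sit at the right edge, and the highest of them is LMB_Assem.1290.CB1 at 1.13.

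The most variable member within groups was LMB_Assem.1290.CB1, with an SD of 1.13. In head kidney it stood at 10464, 6913, 21187 and 2445 CPM in controls, 20007, 7203, 36313 and 22572 CPM in glyphosate libraries and 13840.1, 7175, 15584 and 37095 CPM in Rodeo libraries. In trunk kidney it stood at 3308, 553, 543 and 939.7 CPM in controls, 932, 305, 1200.3 and 2393 CPM with glyphosate and 834, 885, 1157 and 3791 CPM with Rodeo. Each of the 6 groups held libraries that differed more than 4-fold, and the treatments overlapped in both tissues. Trunk control 1 and trunk Rodeo 4 stood apart from the rest of their groups.

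LMB_Assem.1591.C1 had an SD of 0.84 within groups. In trunk kidney it stood at 11032, 8921, 4531 and 3391 CPM in controls, 5760.2, 67844, 15443 and 38288 CPM with glyphosate and 3816, 3488, 3134 and 6029 CPM with Rodeo. In head kidney it stood at 2313, 1430.2, 1802 and 1092 CPM in controls, 2293, 1071, 1812 and 609 CPM with glyphosate and 559.8, 386, 441 and 605 CPM with Rodeo. The highest level was 176 times the lowest, every trunk kidney library lay above every head kidney library, and the spread was widest among the trunk glyphosate libraries. LMB_Assem.916.C1, with an SD of 0.70, had lowest, median and highest levels of 1064, 2656 and 4787 CPM in head kidney and of 585, 1566 and 3509.8 CPM in trunk kidney.

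At the other end, no member had an SD under 0.276 with TMM-scaled CPM. In CPM on library totals the steadiest member was LMB_Assem.0.C7219, with an SD of 0.15. Its head kidney levels were 479, 498, 449 and 362 CPM in controls, 424, 418, 481 and 377 CPM with glyphosate and 514, 422, 413 and 480.0 CPM with Rodeo. Its trunk kidney levels were 339, 338, 307 and 297 CPM in controls, 269, 339, 338 and 323 CPM with glyphosate and 312, 374, 304 and 297 CPM with Rodeo. On this scale it was lower in trunk kidney in most libraries, yet with TMM scaling the tissues differed by 0.04 (SE 0.15, edgeR adjusted p = 0.832). LMB_Assem.1792.C2 had an SD of 0.18, with 433, 488 and 561 CPM in head kidney and 717, 887 and 1195 CPM in trunk kidney (lowest, median and highest). For LMB_Assem.891.C1 the SD was 0.21, with 815, 1048 and 1357 CPM in head kidney and 467, 785 and 1055 CPM in trunk kidney. In CPM on library totals, the first of these was thus even within a tissue but apart between tissues, with no overlap, whereas the second overlapped.

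**Figure D4:**
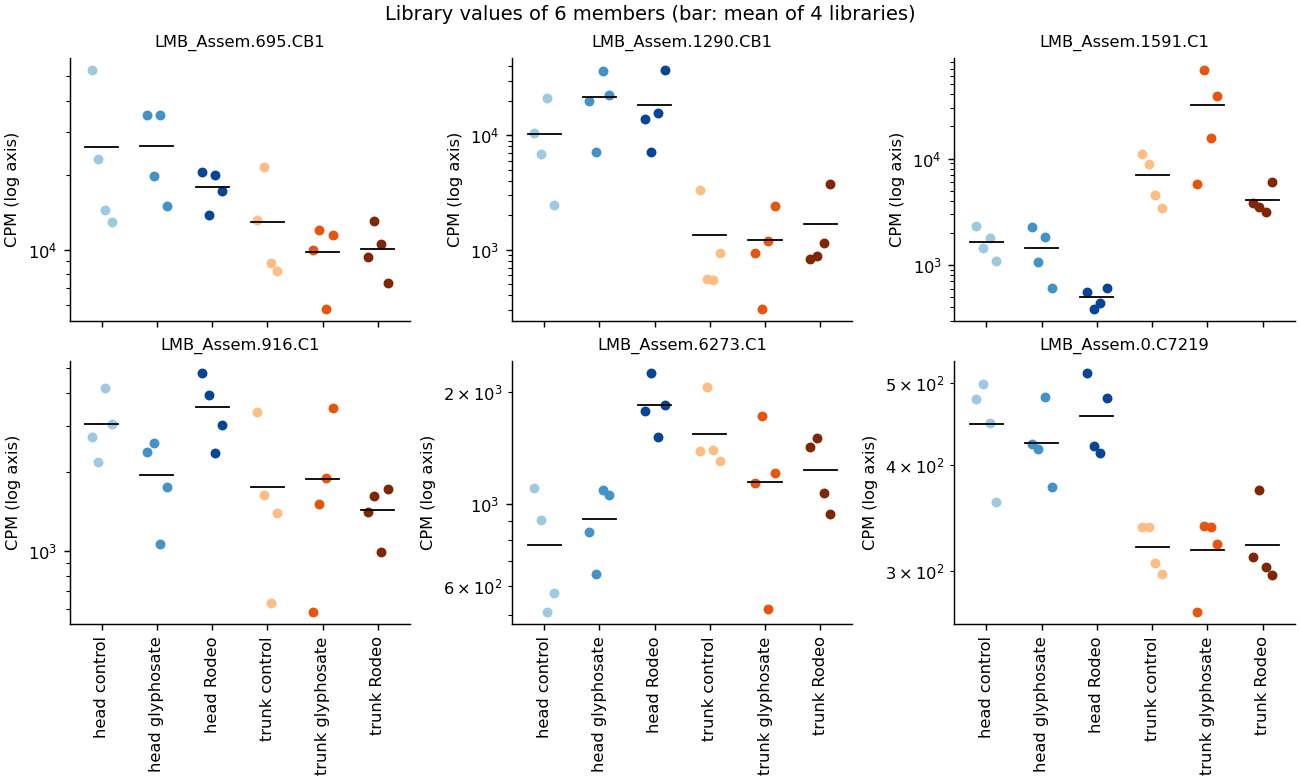
CPM of 6 members in all 24 libraries, 1 panel per contig with its own log axis, 1 point per library and a bar at the mean of the 4 libraries of a group. LMB_Assem.1290.CB1 spans 305 to 37095 CPM and LMB_Assem.1591.C1 386 to 67844 CPM, whereas LMB_Assem.0.C7219 stays between 269 and 514 CPM.

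Much of the variation was shared among members. A library's deviation was taken as its log2 CPM minus the mean of its group, and the median Pearson correlation of these deviations between 2 members was 0.471 over 24 libraries. Among contigs ranked 101 to 1000 it was 0.0751. Correlations over 0.8 made up 15.2% of the pairs of members and 0.660% of the pairs of those contigs. The first principal component carried 49.6% of the variance of the members' deviations. All members share the libraries and their totals, so these values describe likeness only. With TMM scaling the median correlation was 0.739 for the members. It was not computed for ranks 101 to 1000, so that contrast holds for library totals only.

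Grouping the deviations by average linkage at a distance of 0.5, a step chosen after the data were seen, gave 13 sets, the largest with 66 members. This set had a median correlation of 0.727, took 9.18% of head kidney counts and 12.7% of trunk kidney counts, and included LMB_Assem.650.C3 and LMB_Assem.6030.C1. Its mean deviation was lowest in trunk control 3 (-0.64) and highest in head Rodeo 4 (0.49). Of all 100 members, 6 lay above their group mean in trunk control 3, 9 in trunk Rodeo 1, 10 in trunk glyphosate 1 and 18 in head Rodeo 2. The count was 93 in trunk control 1 and in trunk control 2, 88 in trunk glyphosate 4, 83 in head Rodeo 4 and 81 in trunk Rodeo 3. In the other 15 libraries it ran from 22 in head glyphosate 2 to 78 in head glyphosate 3.

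Smaller sets followed other libraries. LMB_Assem.1977.C1, LMB_Assem.1200.C1, LMB_Assem.916.C1, LMB_Assem.9438.C1 and LMB_Assem.1926.C1 formed a set with a median correlation of 0.844, a mean deviation of -1.35 in trunk glyphosate 1 and one of 1.16 in trunk glyphosate 4. The 2 contigs numbered 695 fell in a set with LMB_Assem.1591.C1, LMB_Assem.1402.C2 and LMB_Assem.0.C7190, highest in head control 1 (0.73). The closest pairs were LMB_Assem.12697.C1 with LMB_Assem.1135.C2 (r = 0.979), LMB_Assem.983.C1 with LMB_Assem.1135.C2 (r = 0.978) and LMB_Assem.1977.C1 with LMB_Assem.1200.C1 (r = 0.976). Whether such pairs stem from the same gene was not tested. Between the 8 matched head and trunk libraries the deviations of the members had a median correlation of 0.05 (-0.18 to 0.30 over the pairs), against 0.0009 in the other 136 pairs. Matched libraries were thus about as unlike in the members as other libraries of opposite tissue.

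**Figure D5:**
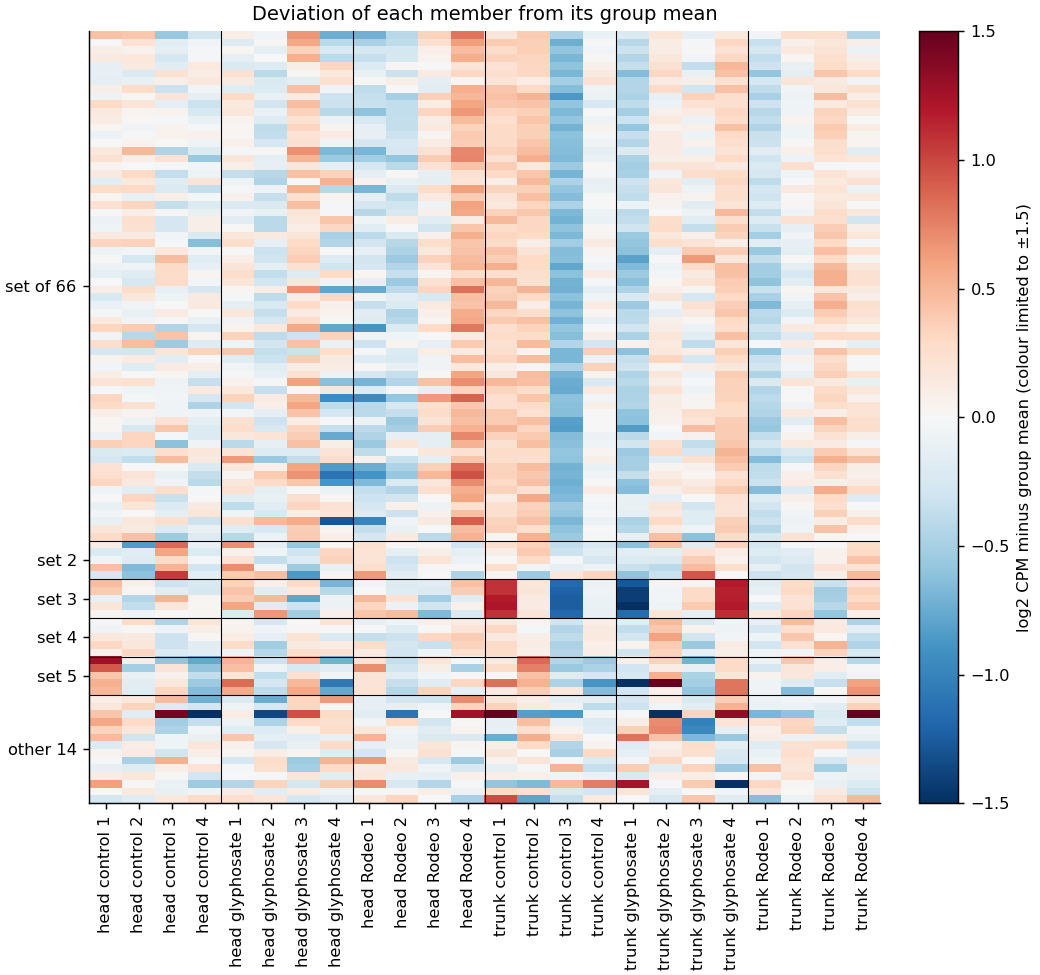
Deviation of log2 CPM from the group mean for the 100 members (rows, sorted by set) in the 24 libraries (columns); red is above and blue below the group mean, and colours are limited to 1.5 either way. Most of the 66 members of the largest set are blue in trunk control 3 and red in head Rodeo 4, and set 3 is blue in trunk glyphosate 1 and red in trunk glyphosate 4.

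Exposure was then compared within each tissue by the labels, fitting the 3 groups of a tissue together and adjusting p over all contigs tested. In trunk kidney glyphosate against control, 0 members passed an adjusted p of 0.05 in edgeR, beside 0% of 43072 contigs. Of 100 members 99 had a fitted log2 difference above 0, beside 45.2% of all contigs, and the median was 0.90, beside -0.08. Members deviated together between libraries (median correlation 0.739 with TMM). Counts of members, here and in the comparisons below, are therefore not independent observations of an exposure. With library totals alone the medians were 0.40 and -0.53 and 86 members lay above 0, beside 19.9% of all contigs. The unadjusted p was under 0.05 for 48 members and for 10.5% of all contigs. That count of members was 8 without trunk glyphosate 4 (beside 6.55% of all contigs), 14 without trunk control 3 (beside 5.54%), 16 without trunk control 4 (beside 7.57%) and 76 without trunk glyphosate 1 (beside 19.1%). It was 17 with library totals (beside 14% of all contigs), 11 with a replicate block (beside 9.37%) and 12 without the matched libraries (beside 4.63%). Computed over all 24 libraries, the TMM factors of trunk glyphosate 2, 3 and 4 were 0.676, 0.643 and 0.528, the lowest. The fits within trunk kidney computed TMM factors anew from its 12 libraries. The part of these factors in the result was not tested beyond the change of scale. Leaving out 1 library at a time gave medians from 0.68 without trunk glyphosate 4, which held the highest level of 42 members, to 1.15. Without the matched libraries the median was 1.25, from 1 control and 2 glyphosate libraries.

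LMB_Assem.1591.C1, whose library values appear with the most variable members, had the smallest p of the members. Trunk glyphosate 2, 3 and 4 lay above all 4 controls and trunk glyphosate 1 within their range (log2 difference 2.70, SE 0.82, n = 4 each; edgeR adjusted p = 0.461). DESeq2 called it (adjusted p = 0.0175), as did edgeR without the matched libraries (log2 difference 4.31, adjusted p = 9.34e-05). There 1 control stood against 2 glyphosate libraries and was assumed to vary as those did. That p thus rests on the spread of a single pair of libraries and on that of other contigs, which edgeR shares between contigs. LMB_Assem.2621.C2 stood at 813, 982, 2359 and 1242 CPM with glyphosate and 808, 538, 882 and 989 CPM in controls (log2 difference 1.32, SE 0.45; edgeR adjusted p = 0.461), with overlapping groups. The member with a fitted difference below 0 was LMB_Assem.0.CB229, at -0.19 (SE 0.29; edgeR adjusted p = 0.823).

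For Rodeo against control in trunk kidney the fitted differences of the members were small beside their errors. Of the 100, 0 passed in edgeR, beside 0.0186% of the contigs tested. DESeq2 also called 0, beside 0.145% of the contigs with an adjusted p. In edgeR 0 members had an unadjusted p under 0.05, beside 4.64% of all contigs. With any 1 library left out, the count under 0.05 stayed at 0. The median log2 difference was 0.18 with 83 members above 0, beside 47.7% of all contigs. That median turned to -0.03, with 44 members above 0 (beside 48.6% of all contigs), without trunk control 3, the control in which most members were low. It was 0.06 without trunk Rodeo 3 or trunk Rodeo 4, 0.10 without trunk control 4, 0.31 without trunk Rodeo 1, 0.33 without trunk control 2, 0.35 without trunk control 1 and 0.78 without the matched libraries. The members with the smallest p were LMB_Assem.2621.C2 (log2 difference 0.74, SE 0.45; edgeR adjusted p = 0.972) and LMB_Assem.12769.C1 (0.52, SE 0.33; edgeR adjusted p = 0.972) among the higher ones. Among the lower ones they were LMB_Assem.1591.C1 (-0.76, SE 0.77; edgeR adjusted p = 0.977) and LMB_Assem.1926.C1 (-0.57, SE 0.61; edgeR adjusted p = 0.978). All 4 differences were smaller than 2 SE.

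Rodeo and glyphosate in trunk kidney were compared directly, with the same glyphosate libraries as above. Of the members 0 passed in edgeR, beside 0% of all contigs, and 3 had a fitted difference above 0, beside 52.1% of all contigs. The median of the members was -0.73 with TMM, beside 0.03 for all contigs, and -0.24 with library totals, beside 0.42. With library totals 17 members lay above 0, beside 77.9% of all contigs. The members' median was -0.47 without trunk glyphosate 4 and -0.46 without the matched libraries. The unadjusted p was under 0.05 for 12 members, beside 7.65% of all contigs. That count was 61 without trunk glyphosate 1 (beside 15.4% of all contigs) and 2 without trunk glyphosate 2 (beside 6.14%). It was 1 without trunk glyphosate 4 (beside 4.62%), trunk Rodeo 1 (beside 4.86%) or trunk Rodeo 2 (beside 5.32%). It was 30 with DESeq2, beside 4056 of the 43072 contigs that the filter kept. It was 2 with library totals (beside 9.28% of all contigs) and 1 without the matched libraries (beside 2.89%). Unless said otherwise, the values given for this comparison come from the fit without pairs. A replicate block, which tied libraries of the same number together, controls included, was an alternative. With it the median was -0.69 and 1 member was under 0.05, beside 6.86% of all contigs. LMB_Assem.1591.C1 was lower with Rodeo (log2 difference -3.46, SE 0.85; edgeR adjusted p = 0.268), and 3 of the 4 glyphosate libraries lay above every Rodeo library. DESeq2 called it (adjusted p = 0.000110). Without the matched libraries edgeR gave an adjusted p of 0.000355, but there trunk Rodeo 3 alone stood against 2 glyphosate libraries and was assumed to vary as those did. LMB_Assem.9550.C1 was also lower (log2 difference -1.13, SE 0.46; edgeR adjusted p = 0.629). The higher ones, LMB_Assem.0.CB229 (0.07, SE 0.29) and LMB_Assem.12692.C1 (0.08, SE 0.33), differed by less than their SE.

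In head kidney Rodeo against control, 0 of 100 members passed in edgeR, beside 0% of 38656 contigs. The median log2 difference was 0.38, with 82 members above 0, beside -0.01 and 49.5% for all contigs. The unadjusted p was under 0.05 for 34 members and for 4.70% of all contigs. That count was 15 without head control 4 (beside 4.9% of all contigs) or head Rodeo 4 (beside 4.27%), 20 without head control 2 (beside 5.53%) and 3 without the matched libraries (beside 5.98%). It rose to 41 without head Rodeo 2 (beside 5.08%) or without a filter on low counts (beside 5.9%). It was 37 without head control 1 (beside 5.01%) or head control 3 (beside 6.87%). With library totals the median was 0.28, and without the matched libraries, which leaves 1 control and 2 Rodeo libraries, it was 0.27.

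LMB_Assem.6273.C1 had the smallest p of the members higher with Rodeo in head kidney. It stood at 1779, 2255, 1515 and 1849 CPM with Rodeo, at 1104, 902, 511 and 576 CPM in controls and at 841, 647, 1090.0 and 1054 CPM with glyphosate. All 4 Rodeo libraries lay above all controls and all glyphosate libraries (log2 difference to control 1.34, SE 0.30, n = 4 each; edgeR adjusted p = 0.923). The call turned on the method, since DESeq2 gave an adjusted p of 0.0187 and edgeR without a filter on low counts gave 0.0489. LMB_Assem.1591.C1 was lower with Rodeo (log2 difference -1.67, SE 0.43, edgeR adjusted p = 0.929, DESeq2 adjusted p = 0.0412, edgeR without the filter 0.0489). In CPM all 4 Rodeo libraries lay below every control. They also lay below every glyphosate library, but only just, with 605 CPM in head Rodeo 4 and 609 CPM in head glyphosate 4. Divided by their TMM factors over all 24 libraries (1.32, 1.002 and 1.12), head glyphosate 4 lay below head Rodeo 1 and head Rodeo 4. The log2 difference was 0.80 for LMB_Assem.9548.C1 (SE 0.23; edgeR adjusted p = 0.968) and -1.005 for LMB_Assem.4105.C1 (SE 0.42; edgeR adjusted p = 0.998).

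For glyphosate against control in head kidney 0 members passed in edgeR, beside 0% of all contigs. DESeq2 called 0 members, beside 0.0717% of the contigs with an adjusted p. The unadjusted p was under 0.05 for 7 members and for 6.42% of all contigs. That count was 1 without head glyphosate 3 (beside 3.17% of all contigs), 2 without head control 3 (beside 4.09%) and 4 without head glyphosate 4 (beside 4.89%). It was 11 without head control 1 (beside 6%) or head control 2 (beside 10.7%). It was 20 with library totals (beside 4.82% of all contigs) and 13 without a filter on low counts (beside 6.9%). The median was 0.26, with 74 members above 0, beside 0.05 and 53.2% for all contigs. It fell to 0.12 without head glyphosate 3 and to 0.16 without head control 4. Without the matched libraries, which leaves 1 library of each label, it was -0.30, with 10 members above 0, beside 52.8% of all contigs. LMB_Assem.2777.C2 and LMB_Assem.12757.C1 were the higher ones with the smallest p, at 0.56 (SE 0.26) and 0.54 (SE 0.25). LMB_Assem.1402.C1 and LMB_Assem.2621.C2 were the lower ones, at -1.02 (SE 0.38) and -1.07 (SE 0.42), and the edgeR adjusted p was 0.761 for all 4.

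Between Rodeo and glyphosate in head kidney 0 members passed in edgeR, beside 0% of all contigs, and the unadjusted p was under 0.05 for 16 members and for 9.15% of all contigs. That count was 7 without head glyphosate 2 (beside 7.86% of all contigs), 8 without head Rodeo 1 (beside 5.04%) and 10 without head glyphosate 3 (beside 5.24%). It was 27 with a replicate block (beside 7.36% of all contigs) and 4 without the matched libraries (beside 7.06%). The median was 0.24, with 72 members above 0, beside -0.05 and 47.0% for all contigs. With library totals it was 0.06, with 55 members above 0, beside -0.23 and 34.2%. It was 0.06 without head Rodeo 4, 0.13 without head glyphosate 2 and 0.59 without the matched libraries. LMB_Assem.6273.C1 was higher with Rodeo (log2 difference 1.19, SE 0.30; edgeR adjusted p = 0.451; DESeq2 adjusted p = 0.0405; edgeR without the filter 0.0475). The log2 differences were 1.05 (SE 0.28) for LMB_Assem.1926.C1, -1.38 (SE 0.42) for LMB_Assem.1591.C1 and -0.99 (SE 0.42) for LMB_Assem.4105.C1, with edgeR adjusted p of 0.451, 0.451 and 0.512.

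The effect of each exposure in head kidney was also compared with its effect in trunk kidney, with an interaction contrast (head minus trunk) over all 24 libraries. For Rodeo 0 members passed in edgeR, beside 0.00572% of all contigs, and 1 had an unadjusted p under 0.05, beside 6.04% of all contigs. That count was 3 without trunk control 3 (beside 5.37%), 2 without head Rodeo 4 (beside 6%), 2 with library totals (beside 5.2%) and 6 without both trunk control 3 and trunk glyphosate 4 (beside 5.59%). Leaving out those 2 libraries together was chosen after the data were seen. The member with all libraries was LMB_Assem.6273.C1, whose Rodeo effects differed by 1.65 (SE 0.50; edgeR adjusted p = 0.611), with trunk kidney levels of 1422, 1501, 1069.5 and 938 CPM with Rodeo and 1385, 2067, 1398 and 1302 CPM in controls. For LMB_Assem.3332.C4 the contrast was 0.78 (SE 0.45), for LMB_Assem.4105.C1 -1.09 (SE 0.62) and for LMB_Assem.2621.C2 -0.75 (SE 0.62). The median over members, 0.18, turned to -0.04 without trunk control 1 and to -0.53 without the matched libraries, so it has no settled sign.

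For glyphosate 0 members passed, beside 0% of all contigs, and 18 had an unadjusted p under 0.05, beside 12.01% of all contigs. That count was 28 without trunk control 1 (beside 12.5% of all contigs), 33 without trunk glyphosate 1 (beside 16.7%), 9 with library totals (beside 14%) and 6 without the matched libraries (beside 6.88%). The median difference of effects was -0.65 for the members and 0.28 for all contigs with TMM, and -0.10 and 0.75 with library totals. It was -0.39 without trunk control 3 or without trunk glyphosate 4 and -1.40 without the matched libraries. Without both trunk control 3 and trunk glyphosate 4 it was -0.17, with 25 members above 0, beside 57.9% of all contigs. With all libraries 5 members were above 0, beside 59.5%. Without those 2 libraries 6 members had an unadjusted p under 0.05, beside 8.41% of all contigs. LMB_Assem.2621.C2 differed by -2.36 (SE 0.63; edgeR adjusted p = 0.289; DESeq2 adjusted p = 0.0448) and LMB_Assem.1591.C1 by -2.97 (SE 0.88; edgeR adjusted p = 0.292; DESeq2 adjusted p = 0.0495). In head kidney LMB_Assem.2621.C2 stood at 626, 654, 263 and 481 CPM with glyphosate and 721, 559, 1772 and 759.9 CPM in controls, so the glyphosate libraries reached lower there and higher in trunk kidney, with overlap in both. LMB_Assem.1290.CB1 (0.62, SE 1.14) and LMB_Assem.6273.C1 (0.12, SE 0.49) were the higher ones with the smallest p, and each differed by less than its SE.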

How the data were processed

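Members, lists and comparisons were chosen with earlier results of these data known. The deposited values are read counts per contig, whole numbers that the authors did not normalize, and a contig missing from a library's list was set to 0 here. The tools named, per the submitters' processing notes, are cutadapt, SAMtools, DESeq and edgeR. Aligner, counting step and use of strand are not stated in the labels. Titles gave each sample's group and replicate number.

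CPM were computed on library totals. Tests used edgeR 4.0.16 in R 4.3.3 (TMM scaling, the filterByExpr filter, the quasi-likelihood F test and Benjamini-Hochberg adjusted p over all contigs tested, threshold 0.05), checked on simulated counts. The filter kept all 100 members. An SE is the absolute log2 difference over the root of F. DESeq2 1.42.0 was an alternative. Library totals ran from 9871623 to 29858387 counts. The counting error of at most 1.97% covers the counting of reads only, since no molecular identifiers are mentioned. The SDs within groups and the SEs reflect the spread between libraries. Replicates were not duplicates (chi-square per degree of freedom 37.9 or more). Same-numbered trunk glyphosate and trunk Rodeo libraries had r from 0.111 to 0.219, above a limit of 0.1 in 4 of 4 pairs. No other pair of groups met this. Libraries of unlike number in these groups ran from -0.172 to 0.137, so the values overlapped. The main fits used no pairs, and a fit with a replicate block was an alternative for every comparison. Libraries were matched between tissues by contigs with high and low libraries more than 3 log2 units apart, at a level of at least 1.5 log2 CPM, when at least 90% of them were alike. Named were the first 5 members, the contigs on both sides of the limit, the 2 higher and 2 lower members of smallest p in each comparison, the 3 most and 3 least variable members and the 3 closest pairs, whether or not they passed, with no more than 2 each way because the identifiers have no names.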

Additional observations from a re-analysis of the deposited data

Results flagged for a closer look

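Among the named contigs and the total share, 7 of 198 groups of 4 libraries (3.54%) held a library that stood apart from the other 3 by Dixon's ratio, and chance alone flags about 5%. LMB_Assem.1290.CB1 stood at 3308 CPM in trunk control 1, above 543 to 939.7 CPM in the other trunk controls, and at 3791 CPM in trunk Rodeo 4, above 834 to 1157 CPM in the other trunk Rodeo libraries. LMB_Assem.12692.C1 stood at 4596 CPM in head glyphosate 1, above 3081 to 3205 CPM in the rest of the group, and at 5855 CPM in head Rodeo 1, above 3509 to 3829 CPM. LMB_Assem.6273.C1 reached 2067 CPM in trunk control 2, above 1302 to 1398 CPM. LMB_Assem.2621.C2 reached 1772 CPM in head control 3, above 559 to 759.9 CPM. LMB_Assem.4104.C2 was low in trunk Rodeo 1, at 2333 CPM below 3060.0 to 3187 CPM.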

How the results depend on the processing

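In the treatment comparisons and the differences of effects between tissues, edgeR called 0 members with TMM, RLE size factors or library totals, with any 1 library left out (0 to 0), with members taken as the first 50 or 200 or by mean CPM, and with members chosen from the libraries not compared (91 to 98 of the 100 shared). The replicate block changed no call either, with 0 members called for Rodeo against glyphosate in trunk kidney, where same-numbered libraries met the limit for pairs. DESeq2 called 2 members for Rodeo against control (0.13% of the contigs with an adjusted p) and 1 for Rodeo against glyphosate (0.332%) in head kidney, 1 for glyphosate against control (0.309%) and 1 for Rodeo against glyphosate (0.758%) in trunk kidney, and 2 for the difference of glyphosate effects (0.675%). Without a filter on low counts edgeR called 2 and 1 in these head kidney comparisons (0.0373% and 0.198% of all contigs). Without the matched libraries, with 1 library in 2 of the 3 trunk groups, it called 1 and 1 in these trunk kidney comparisons (0.521% and 0.329%). Counts of members at an unadjusted p under 0.05 moved by more than 1.5 times in every treatment comparison but trunk Rodeo against control, as given with each. The cause was not tested. Between the tissues 49 members were called, beside 54.5% of all contigs, and 43 to 52 with 1 library left out, beside 52.6% to 55%. With library totals, an alternative chosen after seeing the data, 23 were called, beside 58.2%. In the main fit 22 of the first 50 contigs and 83 of the first 200 were called, beside the same 54.5%. Counts of the first 50 or 200 contigs differ because fewer or more contigs were counted.

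Leaving out 1 library moved the mean share within 15.99% to 18.8% in head controls, 18.5% to 21.2% in head glyphosate, 17.7% to 20.6% in head Rodeo, 16.5% to 19.9% in trunk controls, 22.9% to 26.95% in trunk glyphosate and 18.3% to 20.2% in trunk Rodeo libraries. The first 50 contigs took 12.3%, 13.5%, 12.8%, 12.4%, 14.9% and 13.4% in that order. The first 200 took 21.97%, 24.2%, 23.9%, 22.2%, 29.4% and 23.6% and members by mean CPM 20.02%, 23.7%, 22.2%, 19.4%, 27.001% and 21.1%, in the same order. The median SD within groups was 0.34 to 0.38 with 1 library left out and 0.52 with TMM-scaled CPM.

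For single contigs 778 alternatives were run on 35 differences, of which 752 kept direction and call, 12 passed the threshold and 14 changed sign, all 14 among differences that did not pass. Without the matched libraries the log2 difference became -0.31 for LMB_Assem.2777.C2 and -0.14 for LMB_Assem.12757.C1 (head glyphosate against control), 0.22 for LMB_Assem.1591.C1 (trunk Rodeo against control), 0.50 and -0.50 for LMB_Assem.0.CB229 (trunk glyphosate against control, trunk Rodeo against glyphosate), -0.11 for LMB_Assem.3332.C4 (Rodeo effects) and -1.21 for LMB_Assem.1290.CB1 and -1.49 for LMB_Assem.6273.C1 (glyphosate effects). With 1 library left out the range was -0.87 to 0.037 for LMB_Assem.1926.C1 in trunk Rodeo against control, -0.016 to 0.23 for LMB_Assem.0.CB229 and -0.087 to 0.23 for LMB_Assem.12692.C1 in trunk Rodeo against glyphosate, and -0.47 to 1.45 for LMB_Assem.1290.CB1 and -0.053 to 0.51 for LMB_Assem.6273.C1 in glyphosate effects.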
